A study of Homo sapiens with 3 samples.

Results

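Peaks of acetylated histone H2A in gene deserts, the long stretches of chromosome that hold no protein-coding gene, were examined in UMUC3, an established cell line of human bladder cancer. Members were the listed peaks on chromosomes 1 to 22 whose summit lay more than 500 kb from every protein-coding gene span (hg38). There were 5253 of them among 50985 listed peaks: 2505 of 23975 after cigarette smoke treatment (media at 10% for 3 days) and 2748 of 27010 in cells exposed to air. Chromatin had been immunoprecipitated with an antibody against H2A acetylated at lysine 130 and sequenced (ChIP-seq), with 1 library for smoke, 1 for air and 1 input; the input entered no comparison here. The text on smoke treatment stands on the air and input samples too, so the smoke group rests on its treatment label. Since each group is a single library, differences lack replicates, no p-value is given, and the 95% intervals below cover counting error only. The lists carry no read totals, so depth is unknown. The cell type label could not be checked by expression. Of 11 urothelial marker genes, 3 had a smoke peak over the gene or within 1 kb: TP63, PPARG and UPK1B. TP63 and PPARG were also the 2 with an air peak, and 8, KRT5 and GATA3 among them, had neither. The share over all coding genes is not given here, so these counts do not bear on the cell type.

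Gene deserts often lie beside genes of cell adhesion, axon guidance and developmental transcription, and some hold enhancers that act on those genes over long distances. They also hold long noncoding RNA genes, pseudogenes and a few microRNAs. Acetylation of histone tails is generally found on open chromatin, and its level there is set by acetyltransferases and deacetylases.

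In total, 304 stretches held sequence over 500 kb from coding genes. This inner part is called the core below, and a desert is named by its flanking coding genes. The cores summed to 392 Mb, with a median of 605 kb. Of the 304, 235 held peaks of both libraries, 16 of smoke alone, 18 of air alone, and 35 held none. The most peaks in any desert with 1 library alone was 7, in a core of 0.483 Mb between LOC124902528 and ANKRD30A on chromosome 10, where all 7 were smoke peaks. Long assembly gaps and repeats at centromeres also fall in cores. Of the 392 Mb, 169 Mb lay in stretches of at least 1 Mb with no peak of either list. Such stretches were left out of the lengths by the same rule in cores and elsewhere, but most of the 206 Mb removed lay in cores. This left 223 Mb of core and 2445 Mb of other sequence.

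A few desert peaks touched annotated starts of transcripts, and their sequences show what such sites look like. RefSeq promoter windows (250 bases before to 50 after a gene's start, GRCh38.p14) were matched for 640 noncoding genes inside cores, all of them lncRNA genes. A smoke peak overlapped 5 of the 640 windows, or 0.781% (Wilson interval 0.334 to 1.82), and an air peak 3, or 0.469% (0.160 to 1.37). Over all 33725 windows of chromosomes 1 to 22 in the table the shares were 0.314% for smoke and 0.38% for air. The air interval holds the air value and the smoke interval begins just above the smoke value, with only 5 peaks behind it. For lncRNA windows outside cores the shares were 0.344% and 0.419%, which both fall inside the desert intervals. Windows in cores were low in G and C, with a median of 39.3% against 50.7% in lncRNA windows outside cores and 58.7% over all windows, most of which are not of lncRNA genes. The letters TATAAA, on either strand, were present in 33.1% of core windows, 14.1% of lncRNA windows outside cores and 11.6% of all windows. The 4 windows below are those with most bases under a desert peak. Capitals mark the bases under the peak, and each reads 5′ to 3′ on the gene's strand.
LOC124900846: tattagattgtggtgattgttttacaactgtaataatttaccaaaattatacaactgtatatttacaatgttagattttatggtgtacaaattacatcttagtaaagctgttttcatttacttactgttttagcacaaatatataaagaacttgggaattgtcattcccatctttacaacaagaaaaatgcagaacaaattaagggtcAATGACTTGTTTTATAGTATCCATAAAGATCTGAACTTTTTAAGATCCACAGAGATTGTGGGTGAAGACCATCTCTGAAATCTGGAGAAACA
LOC105370224: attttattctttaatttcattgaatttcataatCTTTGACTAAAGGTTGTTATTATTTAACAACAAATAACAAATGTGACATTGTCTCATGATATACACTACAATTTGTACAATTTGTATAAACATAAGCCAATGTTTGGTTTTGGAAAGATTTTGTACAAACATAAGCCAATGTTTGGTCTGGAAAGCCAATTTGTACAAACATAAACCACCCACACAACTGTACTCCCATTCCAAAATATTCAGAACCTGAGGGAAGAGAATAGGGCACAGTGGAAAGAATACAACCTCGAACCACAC
LOC105370470: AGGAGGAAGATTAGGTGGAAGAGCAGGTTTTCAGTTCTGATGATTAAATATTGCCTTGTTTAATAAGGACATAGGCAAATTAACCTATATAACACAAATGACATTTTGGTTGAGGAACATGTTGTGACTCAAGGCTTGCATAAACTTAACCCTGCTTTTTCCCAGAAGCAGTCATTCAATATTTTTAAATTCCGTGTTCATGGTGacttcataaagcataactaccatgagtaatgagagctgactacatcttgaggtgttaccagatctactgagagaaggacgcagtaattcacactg
LOC124909416: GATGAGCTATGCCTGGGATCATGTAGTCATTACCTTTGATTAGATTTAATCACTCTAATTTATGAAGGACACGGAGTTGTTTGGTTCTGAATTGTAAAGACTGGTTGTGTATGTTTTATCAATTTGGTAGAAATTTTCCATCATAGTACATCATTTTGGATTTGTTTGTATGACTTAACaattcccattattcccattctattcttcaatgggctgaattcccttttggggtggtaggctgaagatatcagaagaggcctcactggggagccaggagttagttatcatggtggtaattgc

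LOC124900846 is a lncRNA gene in the desert between PCDH7, a protocadherin gene, and ARAP2. Its window lies at chr4:35001968-35002267 on the minus strand, and a smoke peak with a fold of 3.76 (the authors' enrichment over background) covered its start site and 92 bases of the window. LOC105370224 lies between the protocadherin gene PCDH17 and DIAPH3 at chr13:59134397-59134696, also on the minus strand. Its air peak (fold 3.48) covered the start site and 267 bases. Both windows hold TATAAA, and these were the 2 of the 8 peaks that reached the start site itself. LOC105370470, between LRFN5 and FSCB at chr14:43308395-43308694 on the plus strand, had a smoke peak (fold 3.66) over 205 bases upstream. LOC124909416, between LSAMP and IGSF11 at chr3:118275726-118276025 on the minus strand, had an air peak (fold 4.29) over 179 bases upstream.

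MicroRNAs were the other short sequences of the cores. Of 42 miRNA genes there, 32 matched a RefSeq hairpin. For 1 of the 32, MIR8054, a peak lay over the hairpin. For 11 of the 32 a peak of either library lay over it or within 5 kb. Shares over hairpins outside cores are not given here, so no nearness to microRNAs can be read. The mature forms below are hsa-miR-8054, for its peak, and those of the let-7c cluster, which lies in the desert that also held the highest-ranked overlapping pair of peaks. The last, hsa-miR-4458, is from another desert and is shown because it has the let-7 seed. Capitals mark the seed, bases 2 to 8.
hsa-miR-8054: gAAAGUACagaucggaugggu
hsa-let-7c-5p: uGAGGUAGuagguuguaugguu
hsa-miR-99a-5p: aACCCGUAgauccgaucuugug
hsa-miR-125b-5p: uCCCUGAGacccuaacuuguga
hsa-miR-4458: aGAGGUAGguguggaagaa

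MIR8054 lies between CCDC179 and LUZP2 on chromosome 11, and the smoke peak over it ran from 23418908 to 23419221 with a fold of 3.34. The nearest air peak was 11.4 kb away. The let-7c cluster lies between USP25 and CXADR on chromosome 21, in a core of 0.633 Mb with 11 smoke and 14 air peaks. let-7 microRNAs are known as brakes on growth and on RAS family genes. A smoke peak (16536964 to 16537113, fold 3.76) lay 1.98 kb from the MIR99A hairpin and 2.72 kb from MIRLET7C. The nearest air peak (16528759 to 16528928, fold 4.93) was 10.2 kb and 10.9 kb from them. The third member, MIR125B2, was 20.2 kb from a smoke and 60.8 kb from an air peak, measured from hsa-miR-125b-5p. MIR4458 lies between MTRR and SEMA5A on chromosome 5, with an air peak 5.38 kb away (fold 4.69) and the nearest smoke peak 179.7 kb away. At none of these microRNAs did peaks of the libraries overlap each other.

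Desert cores held more peaks per Mb than the rest of the chromosomes, once the peak-free stretches were left out. Smoke peaks stood at 11.2 per Mb of core (exact Poisson interval 10.8 to 11.7) and 8.53 elsewhere, a ratio of 1.31 (1.26 to 1.37). Air peaks stood at 12.3 per Mb of core (11.8 to 12.8) and 9.66 elsewhere, a ratio of 1.27 (1.22 to 1.33). This direction depends on the length used. With the full length of every core kept, centromeres included, the ratios were 0.761 in smoke and 0.737 in air. The 277 deserts that touch no peak-free stretch had 11.1 smoke and 12.3 air peaks per Mb over their whole 214 Mb. Those deserts hold no peak-free stretch by selection, so their density does not bear on the direction at full length.

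**Figure D1:**
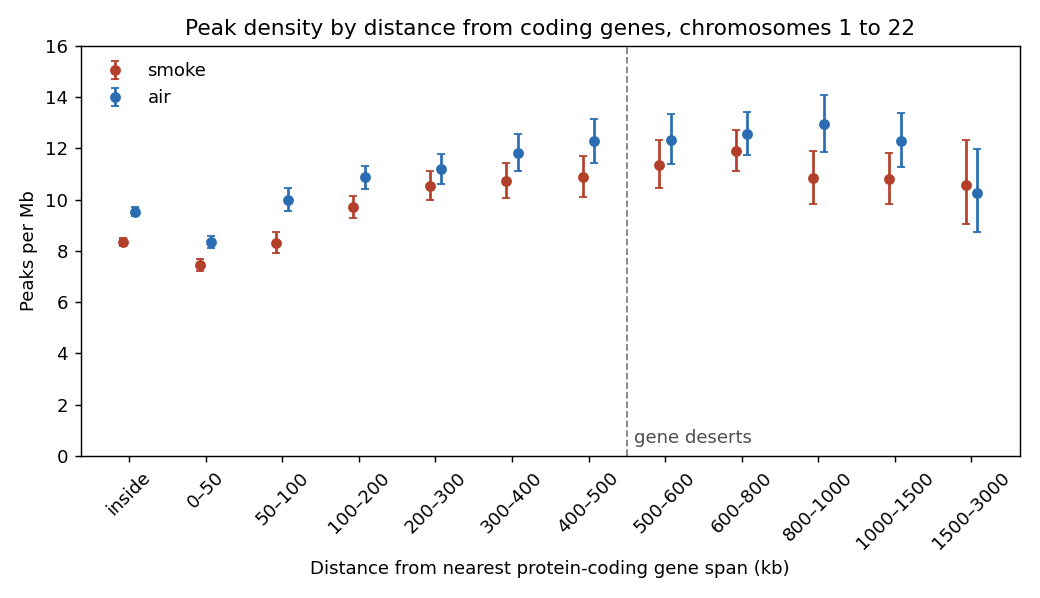
Peaks per Mb (vertical axis) of the smoke and air libraries by distance from the nearest protein-coding gene span in kb (horizontal axis, uneven bins), on chromosomes 1 to 22 without peak-free stretches of 1 Mb or more. Points are densities and bars exact 95% Poisson intervals; values are lowest within 50 kb outside genes (7.46 and 8.36) and run between 10.3 and 13.0 in the desert bins right of the dashed line.

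Density did not step up at the desert border but grew over a long stretch outside it. Within 50 kb outside coding genes there were 7.46 smoke peaks per Mb (7.23 to 7.69) and 8.36 air peaks (8.12 to 8.60). At 400 to 500 kb there were 10.9 (10.1 to 11.7) and 12.3 (11.4 to 13.2). Inside deserts the smoke density was 11.4 at 500 to 600 kb, 11.9 at 600 to 800 kb and 10.6 (9.05 to 12.3) at 1500 to 3000 kb. The air density was 12.3, 12.6 and 10.3 (8.75 to 12) in the same bins. Air density was highest at 800 to 1000 kb, at 12.95 (11.9 to 14.1), and that interval only just overlaps the one at 1500 to 3000 kb. A trend with depth into the desert was not tested. The plot of density by distance shows that inside coding genes the values, 8.35 and 9.52, were also below those of the desert bins. All these bins leave out the peak-free stretches, and the order is given for those lengths only. At full length, cores as a whole had 6.39 smoke and 7.01 air peaks per Mb, which is lower than 8.35 and 9.52. The median distance of a desert peak from the nearest coding gene was 751 kb in smoke and 766 kb in air, and 644 and 705 peaks were more than 1 Mb away.

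Peaks just inside and just outside the 500 kb border had similar folds, while fewer of those inside overlapped a peak of the other library. At 500 to 550 kb there were 317 smoke peaks with a median fold of 3.76 and 346 air peaks with one of 4.06. At 450 to 500 kb there were 335 with 3.76 and 382 with 3.98. The smoke median was 3.76 at every distance from genes, so its likeness at the border says little. A partner in the other list was present for 5 of the 317 smoke peaks inside (1.58%) and 14 of the 335 outside (4.18%). For air peaks the shares were 1.45% inside and 3.66% outside. Over all peaks of chromosomes 1 to 22 they were 1.61% in smoke and 1.43% in air, close to the values inside. The narrow band outside was thus the high one, on few pairs, and no drop inside deserts can be read from this. The closest smoke peaks to the border lay at 500.1 kb (fold 3.80) and 499.6 kb (fold 4.30).

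By chromosome, too, the order depended on the length used. With peak-free stretches left out, smoke density was higher in cores than in the rest of the same chromosome on 19 of 22 chromosomes, with the interval wholly above on 12. Air density was higher on 18, with the interval wholly above on 12. On none was the interval wholly below. With the full length kept, core density was higher on 7 chromosomes in smoke and 6 in air, with the interval wholly above on 3 in each, and wholly below on 10 in smoke and 13 in air. Chromosome 1 then had 3.27 smoke peaks per Mb of core against 7.23 in the rest, and chromosome 13 had 7.20 against 11.1. The values below are again without the peak-free stretches. On chromosome 8, where density was higher in cores at either length, cores had 16.7 smoke peaks per Mb (14.2 to 19.5) against 9.54 in the rest, and 20.2 air peaks (17.4 to 23.2) against 11.3. On chromosome 11 the values were 15.9 (13.6 to 18.5) against 8.78 and 16.9 (14.5 to 19.6) against 9.44. Chromosome 4 went the other way within counting error, with 7.01 smoke peaks per Mb of core (6.09 to 8.03) against 7.17 and 7.25 air peaks (6.31 to 8.29) against 7.97. It held the most core of any chromosome by this measure, 29.5 Mb. Desert peaks made up 22.4% of all smoke peaks on chromosome 13 and 24.4% of all air peaks on chromosome 21, but 1.59% of smoke and 2.80% of air peaks on chromosome 15.

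**Figure D2:**
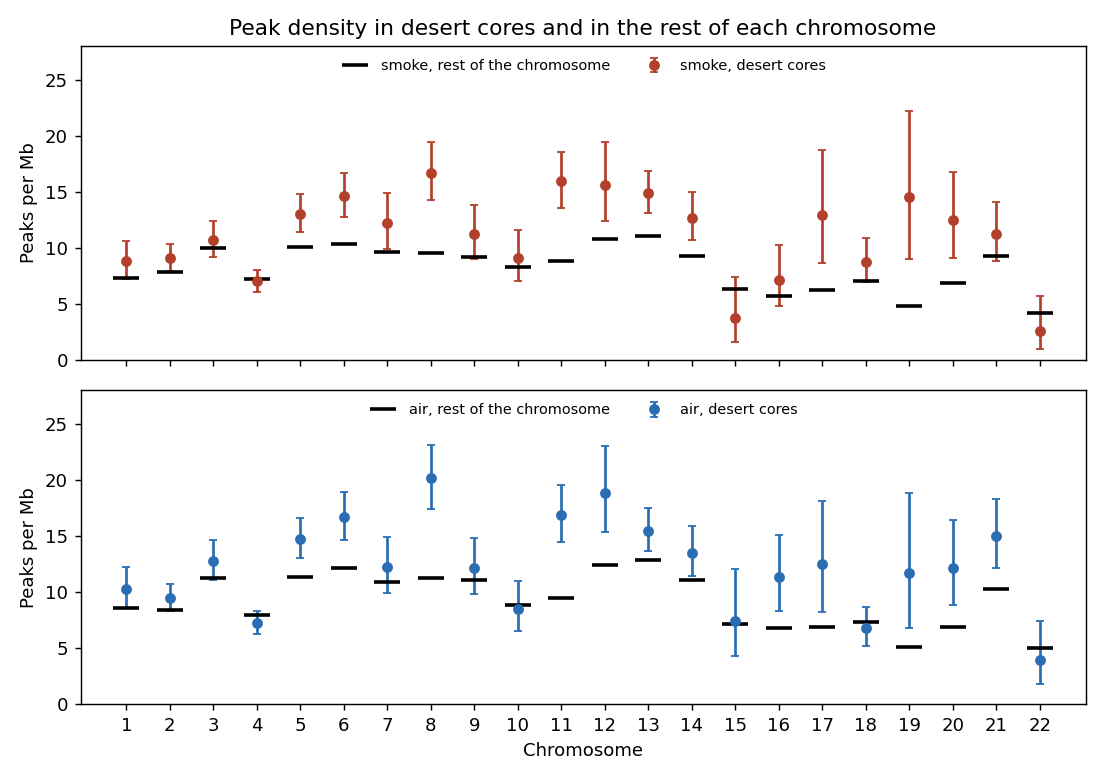
Peaks per Mb (vertical axis) in desert cores (points, with exact 95% Poisson intervals) and in the rest of each chromosome (black bars), for smoke above and air below, by chromosome (horizontal axis). Peak-free stretches of 1 Mb or more are left out of the lengths; core densities then stand above the rest on 19 of 22 chromosomes in smoke and 18 in air, with chromosomes 4 and 22 below in both, and at full length on 7 and 6.

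The 10 deserts with most peaks held 812 of the 5253 members, or 15.5%, in 23.7 Mb of core. The richest lay on chromosome 11 from 79941031 to 82229939, between TENM4, a teneurin gene of neuronal connection, and FAM181B, with 54 smoke and 52 air peaks in 2.29 Mb. Between CTNNA2, an alpha-catenin gene, and SUCLG1 on chromosome 2 (81148781 to 83923527) there were 29 smoke and 60 air peaks. Between the neural adhesion gene NCAM2 and MRPL39 on chromosome 21 (22043330 to 25085655) there were 37 and 52. The smoke shares of these 3 deserts were 50.9% (41.6 to 60.3), 32.6% (23.7 to 42.9) and 41.6% (31.9 to 52.0), with overlapping intervals. The next were NUDT12–EFNA5 on chromosome 5 (38 smoke and 49 air), LINGO2–ACO1 on chromosome 9 (39 and 39) and SNX16–RALYL on chromosome 8 (34 and 42). EFNA5 encodes an ephrin, a ligand of axon guidance. SPRY2–SLITRK1 and SLITRK5–GPC5, both on chromosome 13, had 35 smoke and 38 air peaks each. The SLITRK genes encode adhesion proteins of synapses. JRKL–CNTN5 (31 and 40), beside a contactin gene, and TMEFF2–SLC39A10 (34 and 36) completed the 10.

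**Figure D3:**
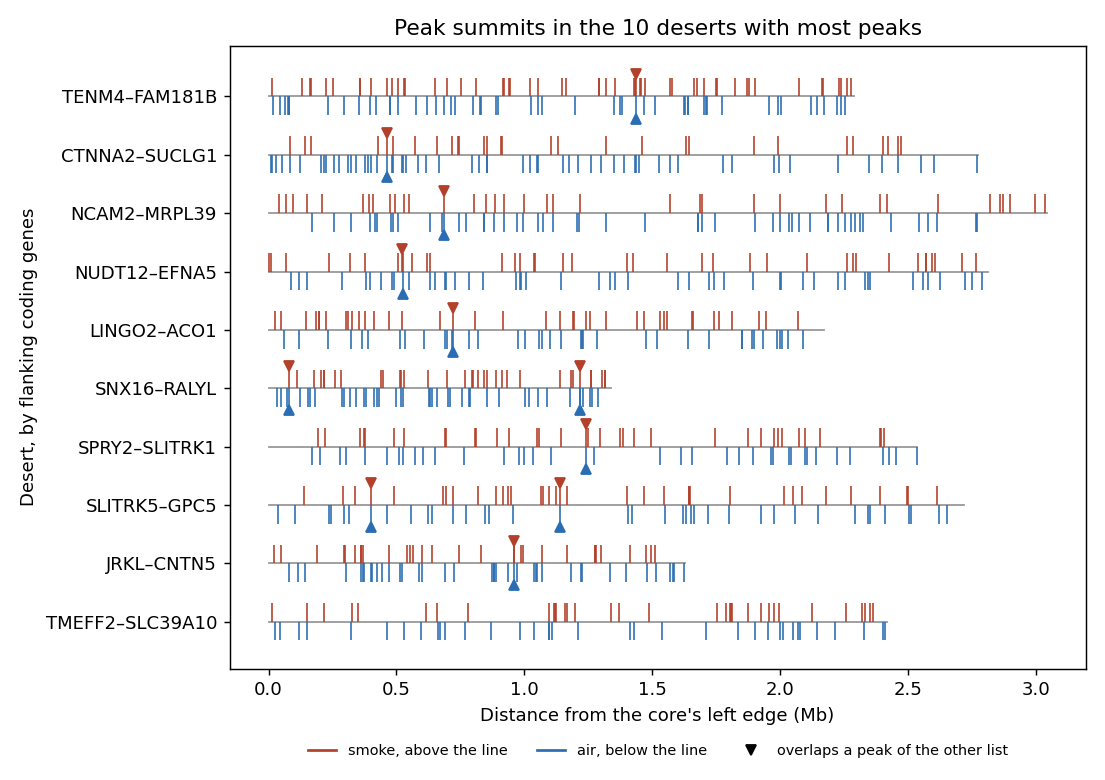
Peak summits along the cores of the 10 deserts with most peaks, as distance from the core's left edge in Mb (horizontal axis), 1 line per desert (vertical axis), smoke ticks above and air ticks below. Triangles mark peaks that overlap a peak of the other list; TMEFF2–SLC39A10 has none and SNX16–RALYL and SLITRK5–GPC5 have 2 pairs each.

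Within these deserts the peaks were spread along the whole core and were weak by the authors' values. In TENM4–FAM181B the smoke folds ran from 2.44 to 6.98 with a median of 4.02, and 29 of 54 had a q of 0.05 or lower. The air folds ran from 2.47 to 5.80 with a median of 3.94, and 36 of 52 had such a q. Of the 106 peaks, only 1 smoke and 1 air peak overlapped each other. Per Mb of core, both lists together, the densest core of at least 500 kb was SNX16–RALYL with 56.7 peaks, followed by DNAJB9–IMMP2L on chromosome 7 with 52.4 (33 smoke and 24 air). LOC124903401–FLRT2 on chromosome 14 had 50.4, PEX2–PKIA on chromosome 8 had 46.6 and TENM4–FAM181B 46.3. Densities here are over the full core and are a ranking, so the top of it is high by choice.

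The 5 longest cores held few peaks or none. The core between LINC02798 and H3-7 on chromosome 1, which spans the centromere, was 21.4 Mb long and held 1 smoke and 3 air peaks. The starts of chromosomes 15, 13 and 14 up to LOC124903442, TUBA3C and OR11H12 had cores of 19.8, 18.7 and 18.1 Mb with 0, 4 and 0 peaks, and LOC112268044–SPATA31A5 on chromosome 9 had 17.0 Mb and 0 peaks. In all, 10 cores of at least 500 kb had no peak of either library. In 9 of them the whole core lay in a peak-free stretch of 1 Mb or more. The other was LRRTM4–REG3G on chromosome 2, with a core of 0.503 Mb. LRRTM4 encodes a synaptic adhesion protein. Others of the 10 were CWH43–DCUN1D4, OR4C12–OR4C46, LOC124903767–SHCBP1, ANKRD30B–ROCK1 and the start of chromosome 21 up to LOC124905051, besides the 3 above on chromosomes 9, 14 and 15.

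Next to the peak-free stretches peaks were dense in single deserts. Over all deserts that touch such a stretch, air density was close to that of the others. Smoke density was higher, with overlapping intervals. The 27 deserts that touch such a stretch held 126 smoke and 115 air peaks in the 9.33 Mb left of them. These were 13.5 (11.2 to 16.1) and 12.3 (10.2 to 14.8) per Mb. The other 277 deserts had 11.1 (10.7 to 11.6) and 12.3 (11.8 to 12.8). ALG10–ALG10B, across the centromere of chromosome 12, had 22 smoke and 17 air peaks in 0.508 Mb, which is 43.3 and 33.5 per Mb and the highest density of each library over the 157 deserts with at least 0.5 Mb of such length. These stretches end at a peak by their definition, so their edges hold peaks by construction. Over the 157 deserts the quartiles were 7.77 and 14.7 per Mb in smoke, with a median of 11.6, and 7.86 and 17.1 in air, with a median of 11.7.

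Smoke peaks were 47.7% of all desert peaks (46.3 to 49.0) and 46.9% of the peaks in the rest of chromosomes 1 to 22 (46.4 to 47.4). Across the 157 deserts, smoke and air densities had a Pearson correlation of 0.65 and a Spearman correlation of 0.69, given as a description, since the points share the libraries, the assembly and the control named with both lists. Among the 95 deserts with at least 20 peaks, which held 3843 of the members, the smoke share ran from 25% to 72.7%. In 8 of the 95, or 8.42%, the Wilson interval left out 47.7%. Some 95% intervals leave out a common value by counting error alone, and no like share was taken outside deserts. Of the 8, 4 were low in smoke and 4 high.

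**Figure D4:**
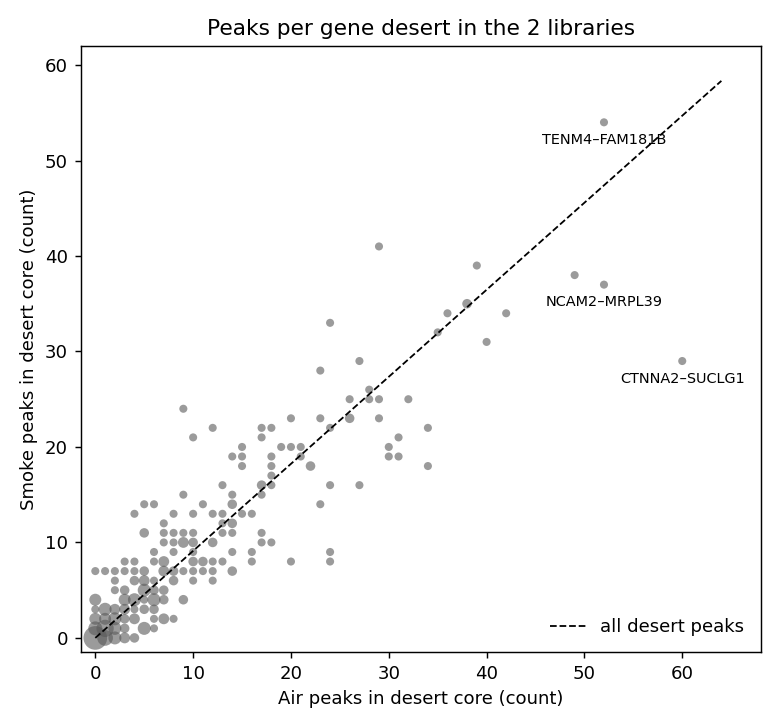
Smoke peaks (vertical axis, count) against air peaks (horizontal axis, count) in each of the 304 desert cores, with larger points where several deserts have the same counts. The dashed line has the slope of all desert peaks together (2505 to 2748); CTNNA2–SUCLG1 lies far to the right of it with 29 smoke and 60 air peaks.

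Deserts low and high in smoke share are given with their flanks. Of the 19 deserts beside a cadherin or protocadherin gene, 7 had more smoke and 10 more air peaks, and their smoke share together was 45.2%. CDH8–CDH11 on chromosome 16 (62536439 to 64443752) had 9 smoke and 24 air peaks, a smoke share of 27.3% (15.1 to 44.2). CDH10–CDH9 on chromosome 5 (25144979 to 26380596) had 8 and 20, or 28.6% (15.3 to 47.1). Cadherins are calcium-dependent adhesion proteins. The lowest share was in LOC100996696–TAFA2 on chromosome 12, 8 smoke of 32 peaks, and CTNNA2–SUCLG1 had 32.6% (23.7 to 42.9). The highest shares were in SLITRK6–LOC124900338 on chromosome 13 (86299420 to 87114266), with 24 smoke and 9 air peaks or 72.7% (55.8 to 84.9), in NEDD1–TMPO on chromosome 12 with 14 and 6, and in OLFM4–LOC124903233 on chromosome 13 with 21 and 10. Each is a difference between 2 libraries, ranked after the counts were seen, and was not tested against replicates.

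Few desert peaks overlapped between smoke and air. A desert peak was counted as shared when it overlapped a peak of the other list by at least 1 bp. There were 47 such pairs in 39 deserts. They were 1.88% of smoke desert peaks (1.41 to 2.49), beside 1.61% of all smoke peaks on chromosomes 1 to 22, and 1.71% of air desert peaks (1.29 to 2.27), beside 1.43%. The share depended strongly on the rule: in smoke it was 0.639% with a reciprocal overlap of 50%, 5.79% within 1 kb, and 0.478% among peaks with a −log10 q of at least 2. Outside deserts the shares were 1.58% (1.42 to 1.76) and 1.40% (1.26 to 1.56), inside or at the edge of the desert intervals. In the bin at 400 to 500 kb, just outside the border, 3.24% of smoke peaks had a partner (2.17 to 4.81), and at 500 to 600 kb 1.74% (0.949 to 3.18). Thus smoke and air densities ran together over deserts, while positions were seldom shared.

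The shared pairs were no stronger than other desert peaks. Their median fold was 3.76 in smoke and 3.48 in air, and in 10 of the 47 q was at most 0.05 in both lists. The median overlap was 158 bp and the median gap between summits 133 bp. By rank of −log10 p in both lists the highest pair lay in the let-7c desert, USP25–CXADR, on chromosome 21. Its smoke peak ran from 16841627 to 16841926 (fold 5.35) and its air peak from 16841478 to 16841656 (fold 5.76), with 30 bp in common, 671 kb from CXADR, a virus receptor and junction protein gene. The next lay 510 kb from ST8SIA4, a polysialyltransferase gene, on chromosome 5 (smoke 101413206 to 101413578, fold 4.84; air 101413264 to 101413575, fold 4.64), where the air peak fell wholly inside the smoke peak. The first 10 were completed by PCDH20–LOC112267897, KLHL1–DACH1, PCDH17–DIAPH3 and LOC647264–PCDH9 on chromosome 13, SNX16–RALYL on chromosome 8, NUDT12–EFNA5, LINGO2–ACO1 and FAT4–INTU. The desert with most pairs, 3, was ANKRD7–KCND2 on chromosome 7, beside a potassium channel gene. Of the 47 smoke peaks in pairs, 6 had the summit inside a noncoding gene.

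The strongest desert peaks had no partner. In smoke the highest −log10 q was 6.89, for a peak at 8420122 to 8420566 on chromosome 21 with a fold of 3.56, inside a transcribed pseudogene and the only peak of the desert LOC102723475–LOC101927345. The nearest air peak was 579 kb away. Next came peaks with a −log10 q of 6.10 and a fold of 7.52 in ALG10–ALG10B (34652316 to 34652520) and in LOC107987004–LOC107987067 on chromosome 9. The remaining 2 of the first 5 were in TENM4–FAM181B and again in ALG10–ALG10B, both with a fold of 6.98. The ALG10–ALG10B core lies across a centromere, and whether repeats affected any of these peaks was not tested. In air the highest −log10 q was 6.30, in SPRY2–SLITRK1 on chromosome 13 (82372380 to 82372584, fold 7.66), 1505 kb from SLITRK1 and inside a lncRNA gene. The next were in SLC4A3–EPHA4, NCAM2–MRPL39 and RNF144B–ID4, all inside lncRNA genes, and in ALG10–ALG10B. EPHA4 encodes an ephrin receptor, and ID4 an inhibitor of helix-loop-helix transcription factors. Thus 4 of the first 5 air peaks and 0 of the first 5 smoke peaks lay in a lncRNA gene, which is too few to compare.

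In strength and size desert peaks resembled the rest of their list. The median fold of desert peaks was 3.76 in smoke, as elsewhere, and 4.04 in air against 3.93 elsewhere. Many smoke folds repeat the same few values, and the quartiles, 3.22 and 4.30, were also equal, so the equal medians say little. A q of 0.05 or lower was given for 42.8% of smoke desert peaks (40.9 to 44.7) and 44.8% of the rest (44.2 to 45.5), and for 60.2% (58.3 to 62) and 60.6% of air peaks. Median widths were 217 bp in smoke deserts and 227 bp elsewhere, and 279 and 278 bp in air. Neighbours of the same library within 2 kb were present for 4.87% of smoke (4.09 to 5.78) and 4.40% of air desert peaks (3.70 to 5.24), beside 4.45% and 4.57% elsewhere.

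Part of the desert peaks lay inside noncoding genes. The share of core length that such genes span is not given here, so no preference for them can be read. Summits lay inside a noncoding gene span for 22.6% of smoke (21.0 to 24.3) and 22% of air desert peaks (20.5 to 23.6), nearly all of them lncRNA genes (21.2% and 20.6%), against 18.1% and 17.6% for any noncoding gene elsewhere. Of 875 lncRNA genes wholly inside cores, 323 held a summit of either library and 109 held both. Of 851 pseudogenes, which had a median length of 0.656 kb against 16.8 kb for the lncRNA genes, 29 did. Like counts for genes outside cores are not given here, so whether these are usual cannot be read. LOC102724542, a lncRNA gene of 369 kb in CTNNA2–SUCLG1, had 5 smoke and 14 air summits, a split in the direction of its desert. LINC03000, the longest of the 875 at 765 kb, in MAT2B–TENM2 on chromosome 5, had 10 and 8. MIR924HG on chromosome 18 had 6 and 6. These 3 genes were chosen after their values were seen, and long genes hold more peaks by length alone.

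Some of the listed gene families were more common among the genes that flank deserts than among all coding genes, and others less so. This is a property of the genome and not of the peaks, and it was not tested. Of 558 flanking genes 19, or 3.41%, were cadherins or protocadherins, against 0.337% of the 18969 coding genes of chromosomes 1 to 22. Their 19 deserts held 233 smoke and 282 air peaks, or 9.09 and 11.0 per Mb. Transcription factors of the listed families, such as SOX9 and MEIS1, made up 17 flanks (3.05% against 0.859%), with 10.9 smoke and 11.6 air peaks per Mb. Glutamate and GABA receptor genes gave 9 flanks, with 12.3 and 12.6 per Mb, and potassium channel genes 8, with 12.5 and 13.2. The 4 deserts beside SLITRK1, SLITRK5 and SLITRK6 had 15.6 and 13.5 per Mb, and the 6 beside contactin-type genes, CNTN5 and CNTNAP2 among them, 14.2 and 16.7. ROBO1 and SLIT2, of axon guidance, flanked 2 deserts with 5.12 and 6.66 per Mb. Zinc finger genes (1.79% of flanks against 2.66%) and olfactory receptor genes (0.717% against 2.05%) were less common as flanks than among coding genes. Families overlap where a desert has a member of 2 of them as flanks.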

How the data were processed

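Peak lists of 1 smoke and 1 air library were analysed; the input was not analysed here. The submitters' processing notes name the tools Bowtie2, MACS and MACS2 and the builds hg38 and mm10, without their roles; settings are unknown here. The deposited score is a whole number of about 10 times the −log10 p. The deposited fold is the authors' enrichment ratio over background, and −log10 p and −log10 q are as deposited, from their peak calling. They were used only to describe or rank peaks within a list. How the listed peaks were filtered is not stated.

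Gene spans came from the GRCh38.p14 RefSeq table, which has no strand or exons: 18969 coding genes on chromosomes 1 to 22. Another 153 coding rows restarted at low positions after the chromosome's last gene, lie on other sequences and were left out. A core runs from 500 kb outside the left to 500 kb outside the right coding gene, or to the chromosome's end. Stretches of 1 Mb or more without a peak of either list were left out of lengths. This uses the outcome itself and stands in for assembly gaps, for which no file was used here. Density intervals are exact Poisson and shares are Wilson intervals (95%, scipy 1.17.1). Overlaps were computed in Python and checked against bedtools 2.31.1, and desert placement was tested on simulated data. Alternatives covered the distance from genes, a −log10 q of at least 2, LOC genes, the length used, list size and the overlap rule.

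Deserts were named by rule: the 10 with most peaks, the 5 longest, the 5 densest with a core of at least 500 kb, the 3 highest and 3 lowest in smoke share among those with at least 20 peaks, those without a peak, and those of the 5 strongest peaks per list and of the first 10 overlapping pairs. Other names were chosen after values were seen. Some deserts and genes that these rules pick are not reported here. The members, families and lists were chosen with earlier results of these data known. RefSeq promoter windows and microRNA sequences came from tables without chromosome 8 promoters; no genome sequence was used, so peak sequences elsewhere are not shown.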

Additional observations from a re-analysis of the deposited data

Results flagged for a closer look

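Chromosome X was outside the rule for members and entered no comparison above. It also held peaks more than 500 kb from every protein-coding gene: 43 of its 618 smoke peaks and 47 of its 658 air peaks, in 23 deserts with 14.6 Mb of core.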

How the results depend on the processing

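The settings on deserts without a peak-free stretch, on stretches of 3 Mb and on chromosomes at full length were chosen after seeing the data. Of 69 values under alternatives, 32 stayed close to those reported. With full length kept, densities were 6.39 (smoke) and 7.01 (air) per Mb and the ratio to the rest turned to 0.761 and 0.737; core density was then higher than the rest on 7 and 6 chromosomes. The alternative adds 206 Mb without peaks, 169 Mb of it in cores. With only stretches of 3 Mb left out, densities were 10.3 and 11.3 and ratios 1.22 and 1.18. At 250 kb from coding genes there were 4773 smoke and 5260 air peaks, 26.7% and 26.6% of them in noncoding genes. At 1 Mb there were 644 and 705 peaks, 10.6 and 11.6 per Mb, ratios of 1.21 and 1.18, and 19.6% and 18.3% in noncoding genes. At a −log10 q of at least 2 there were 418 and 733 peaks, 1.87 and 3.28 per Mb, ratios of 1.26 and 1.36, a smoke share of 36.3%, 24.4% of smoke peaks in noncoding genes and overlaps of 0.478% and 0.273%. Overlap was 0.639% and 0.582% when reciprocal by 50%, and 5.79% and 5.17% within 1 kb. With equal list sizes the smoke share was 50.9%. No paired analysis was possible because each group has 1 library, and none could be left out. Depth is unknown, and peaks below the authors' filter were not measured here.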

Other observations

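Some deserts lie beside genes of known weight in urothelial or tumour biology; they were chosen after values were seen. GATA3, a luminal urothelial transcription factor gene, had no peak over it. The desert between it and CELF2 on chromosome 10 (core 8575199 to 9962549) held 12 smoke and 14 air peaks. Of these, 3 smoke and 7 air summits lay in the lncRNA gene LINC02663. SLC35B3–TFAP2A on chromosome 6, beside an epithelial transcription factor gene, held 13 and 12. MYC–GSDMC on chromosome 8 (core 128242952 to 129205434), next to a growth-promoting oncogene, held 14 and 14, with 2 overlapping pairs. In 1 of these the peaks ran from 128481714 to 128481895 in smoke (fold 3.22) and from 128480947 to 128481904 in air (fold 3.56), 739 kb from MYC and inside a lncRNA gene. All 3 deserts were near even between the libraries. Per Mb of core, both lists together, they held 18.7, 26.0 and 29.1 peaks in the order given. Over all cores, without peak-free stretches, there were 11.2 smoke and 12.3 air peaks per Mb. SOX2–ATP11B on chromosome 3, also looked at, held 1 smoke and 1 air peak in a core of 0.0791 Mb.

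At a −log10 q of at least 2, smoke peaks were 36.3% of desert peaks (33.6 to 39.1) and 38.3% of the rest of chromosomes 1 to 22 (37.3 to 39.3).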
